A study of Mus musculus with 4 samples.

Results

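The genes of the NRF2 antioxidant response, glutathione and thioredoxin recycling, and iron handling were followed in RAW264.7 cells given 1,5-anhydroglucitol (1,5-AG). The set was a list of 33 gene symbols chosen by role, with earlier results of these data known. Of these, 32 had a row in the deposited table of 21523 genes, and 30 were expressed strongly enough to be tested. The remaining symbol, Aco1os, was not found in the annotation used and was not analysed here. RNA was sequenced from 1,5-AG cultures, labelled AG and treated at 0.5 mM for 24 h, and from control cultures, labelled Ctrl with no treatment, with 2 libraries in each group. All 4 libraries came from cells kept in DMEM with fetal bovine serum. RAW264.7 is a mouse macrophage-like line from a virus-induced tumour of a BALB/c animal, so every library came from 1 transformed line. That strain carries a loss-of-function allele of Slc11a1. No culture time is stated for the controls. The labels do not say whether replicates of a group were grown separately. The p-values therefore reflect library-to-library spread alone, and that spread may be technical.

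NRF2, encoded by Nfe2l2, is a transcription factor that is normally captured by KEAP1 and sent for degradation. When reactive molecules modify KEAP1, NRF2 accumulates and binds antioxidant response elements near genes for glutathione synthesis, thioredoxin recycling, heme breakdown and ferritin. This control acts on NRF2 protein, which RNA sequencing does not measure. Macrophages recycle iron from engulfed red cells, with heme oxygenase freeing the iron, ferritin storing it and ferroportin exporting it. Iron also acts on messenger RNA directly. Iron regulatory proteins bind hairpins called iron-responsive elements, which block translation when they lie before the coding sequence and stabilise the transferrin receptor message when they lie after it.

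The hairpins are shown because they mark listed messages that iron regulatory proteins can bind. Those before the coding sequence act on translation, which RNA levels do not measure. A strict hairpin was searched in the untranslated regions of GENCODE M21 transcripts on mm10. It had an unpaired C, 5 paired bases and the loop CAGTGN. Of 21531 protein-coding genes, 0.13% matched before the coding sequence and 0.585% after it. The listed genes with a match were Fth1, Ftl1, Slc40a1 and Tfrc. Because the form searched was strict, a listed gene without a match can still carry an element. In these sites, written 5′ to 3′ on the transcript strand, capitals mark the unpaired C and the loop.
Fth1 (before the coding sequence, chr19:9982732-9982760, plus strand): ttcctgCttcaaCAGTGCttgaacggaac
Ftl1 (before the coding sequence, chr7:45459779-45459807, minus strand): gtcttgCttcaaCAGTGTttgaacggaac
Slc40a1 (before the coding sequence, chr1:45925465-45925493, minus strand): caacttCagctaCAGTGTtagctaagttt
Tfrc, site 1 (after the coding sequence, chr16:32631219-32631247, plus strand): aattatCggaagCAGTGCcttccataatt
Tfrc, site 2 (after the coding sequence, chr16:32631598-32631626, plus strand): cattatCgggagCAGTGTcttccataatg
Tfrc, site 3 (after the coding sequence, chr16:32631663-32631691, plus strand): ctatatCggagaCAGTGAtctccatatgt
Tfrc, site 4 (after the coding sequence, chr16:32631710-32631738, plus strand): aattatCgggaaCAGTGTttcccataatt
The ferritin sites share their stem, and Tfrc carries 4 such hairpins within its 3′ untranslated region.

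Letters of the antioxidant response element core, TGACNNNGC on either strand, were searched in RefSeq promoter windows of the build GRCm38.p6, from 250 bases before to 50 bases after each gene's start. Such windows existed for 26 of the listed genes. The core was found in 22.2% of their 36 windows and in 12.4% of all 32851 windows. A match is a description of letters and not a binding site, and NRF2 also binds distal elements outside these windows. The matches in 5 genes of the pathway's own control and output are given with the fixed letters of the core in capitals. GCNNNGTCA is the same core read on the opposite strand.
Nfe2l2 (chr2:75704885-75704913, minus strand): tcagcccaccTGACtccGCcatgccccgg
Prdx1 (chr4:116685456-116685484, plus strand): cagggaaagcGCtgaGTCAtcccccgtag
Srxn1 (chr2:152105542-152105570, plus strand): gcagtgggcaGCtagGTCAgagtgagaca
Txnrd1 (chr10:82859104-82859132, plus strand): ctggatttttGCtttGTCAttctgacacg
Gclm (chr3:122245413-122245441, plus strand): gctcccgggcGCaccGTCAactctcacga
The other matches lay in the windows of Blvra, Ncoa4 and Sod1. In Txnrd1 and Ncoa4 the matched windows lay at start sites inside the genes, which begin at 82833951 and 32159865.

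No gene of the set passed the limma test between 1,5-AG and control cells, which was run across all genes. With an adjusted p of at most 0.05, 0 of 30 tested genes passed, against 1.46% of all 11119 genes tested (0.809% higher and 0.648% lower). Fold changes are differences of log2(FPKM + 1), 1,5-AG minus control. They ran from -0.21 for Cat to 0.19 for Osgin1, with 14 positive and 16 negative and a median of -0.0056, beside -0.0025 over all tested genes. The median absolute fold change was 0.08 among these genes and 0.08 among all tested genes. The 95% intervals of all 30 fold changes lay inside -0.33 to 0.44. At an unadjusted p under 0.05, 5 of 30 passed (2 higher and 3 lower), against 18.2% of all tested genes (9.16% higher and 9.05% lower). The 1,5-AG and control libraries did not overlap for 20 of 30 genes, 10 above and 10 below, against 49.6% of all tested genes (24.2% above and 25.4% below). Testing recovered whole fragments with voom called 2 of 30, Cat and Sqstm1, both lower with 1,5-AG, against 8.29% of all 11056 genes in that fit (4.64% lower).

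**Figure D1:**
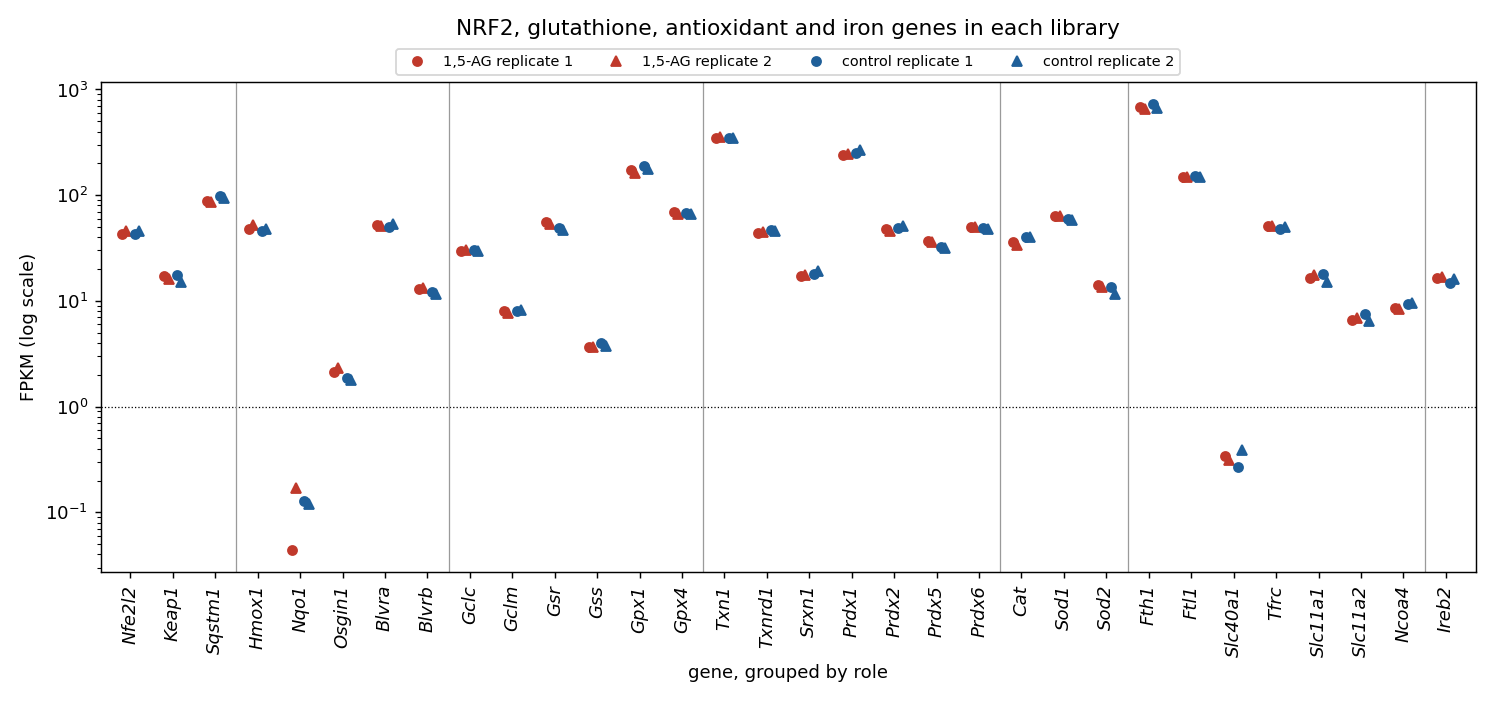
FPKM of each listed gene with a row in the table (vertical axis, log scale), grouped by role, in the 1,5-AG libraries (red) and the control libraries (blue); circles are replicate 1 and triangles replicate 2. The dotted line marks 1 FPKM, the level below which genes were not tested, and Nqo1 and Slc40a1 lie under it. Levels span from Nqo1, at 0.0441 to 0.170 FPKM, to Fth1, at 649 to 724 FPKM, while the groups of each gene lie close together.

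The libraries rested on 14616556 and 15112965 fragments in 1,5-AG cells, and on 15163807 and 16228673 in control cells. Of the 30 tested genes, 28 had at least 500 recovered fragments in every library. Of 7 macrophage markers, 6 were tested and 1, Lyz2, passed in limma. Cd68 had 472 and 479 FPKM in 1,5-AG cells, against 500 and 498 FPKM in control cells. The macrophage lysozyme gene Lyz2 had 3095 and 3001 FPKM with 1,5-AG, against 4554 and 4422 FPKM in control cells, and fell (log2 fold change -0.56, limma adjusted p = 0.0168). Csf1r had 237 and 240 FPKM with 1,5-AG, against 258 and 258 FPKM without (limma adjusted p = 0.169, voom 0.0215). Adgre1, which encodes F4/80, had 16.9 and 17.5 FPKM with 1,5-AG, against 20.1 and 23.4 FPKM without (-0.32, limma adjusted p = 0.139, voom 0.00598). Thus 3 of the markers, Lyz2, Csf1r and Adgre1, were called lower in voom. Spi1 had 103.8 and 95.5 FPKM with 1,5-AG, against 120.5 and 103.5 FPKM without, and Itgam had 7.50 and 7.51 FPKM, against 6.87 and 7.67 FPKM. Mrc1 was nearly absent, at 0.129 and 0.125 FPKM with 1,5-AG and 0.269 and 0.232 FPKM without. The part of these markers in the results on the listed genes was not tested. Of 28 markers of T, NK, B, neutrophil, fibroblast, epithelial, liver and erythroid cells, 9 had a row and none exceeded 0.394 FPKM. Their summed level was 0.806 and 0.786 FPKM in 1,5-AG cells, against 0.690 and 0.906 FPKM in control cells. As bulk samples, the libraries cannot tell fewer cells of a type from less RNA per cell.

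The regulators were expressed at like levels in both groups. Nfe2l2 (chromosome 2, 75675513 to 75704641, minus strand, mm10) had 43.0 and 45.5 FPKM in 1,5-AG cells, against 43.1 and 46.0 FPKM in control cells. The replicate libraries of each group lay further apart than the group means. Its fold change was -0.01 (SE 0.05), with a 95% interval from -0.14 to 0.13. Keap1, the adaptor that delivers NRF2 to its ubiquitin ligase, had 17.1 and 16.2 FPKM with 1,5-AG, against 17.4 and 15.2 FPKM without (0.03, SE 0.08). In both genes the groups overlapped.

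Sqstm1 encodes p62, an autophagy receptor that binds KEAP1 and is itself an NRF2 target. It had 87.7 and 85.4 FPKM in 1,5-AG cells, against 98.0 and 93.1 FPKM in control cells. Both 1,5-AG libraries were below both controls, a difference of -9.45% in the mean. The fold change of -0.14 (SE 0.04) did not pass in limma (adjusted p = 0.183) and passed in voom (adjusted p = 0.0418), with adjusted p from 0.0418 to 0.477 over the alternatives tried. Exons of Sqstm1 share 580 bases with Mrnip on the opposite strand, at a mean of 2.31 FPKM.

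Among the induced enzymes, Hmox1 was well expressed and Nqo1 was close to absent. Hmox1 (chromosome 8, 75093621 to 75100589) encodes heme oxygenase 1, which opens the heme ring and frees its iron. It had 48.4 and 51.8 FPKM with 1,5-AG, against 46.0 and 47.9 FPKM in control cells. Although the groups did not overlap, the gap between them was smaller than the spread within 1,5-AG cells, and the fold change of 0.09 (SE 0.05) did not pass (limma adjusted p = 0.421). Nqo1, a quinone reductase often used as an NRF2 readout, had 1 and 4 fragments in 1,5-AG cells and 3 and 3 in control cells. Counts this low sit around the limit of 3 fragments per library, and no difference was detectable at this depth.

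Osgin1, an oxidative stress-induced growth inhibitor, had the largest positive difference of the set. Its values were 2.15 and 2.30 FPKM in 1,5-AG cells, against 1.85 and 1.80 FPKM in control cells. Both treated libraries were higher, by 22.03% in the mean, on 84 and 93 fragments against 75 and 78. The interval of its fold change, from -0.05 to 0.44, was the widest of the set and included 0 (limma adjusted p = 0.376). Blvra and Blvrb encode biliverdin reductases, which act after heme oxygenase to make bilirubin. Blvra had 52.8 and 50.7 FPKM with 1,5-AG, inside the control values of 50.3 and 53.4 FPKM. Blvrb had 13.0 and 13.1 FPKM with 1,5-AG, above the control values of 12.3 and 11.6 FPKM, and its fold change of 0.12 (SE 0.05) did not pass (limma adjusted p = 0.308).

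Glutathione synthesis genes were close in both groups. Glutamate-cysteine ligase makes the first and limiting step, with the catalytic subunit from Gclc and the modifier subunit from Gclm. Gclc had 29.7 and 30.0 FPKM in 1,5-AG cells, against 30.5 and 29.9 FPKM in control cells. Gclm had 7.96 and 7.63 FPKM in 1,5-AG cells, just under the control values of 8.02 and 8.12 FPKM. The ratio of the Gclc level to the Gclm level, both per length, was 3.74 and 3.94 with 1,5-AG and 3.80 and 3.68 without. Gss, which completes glutathione, had 3.70 and 3.66 FPKM in 1,5-AG cells, against 3.96 and 3.76 FPKM in control cells. Exons of Gss share 395 bases with Acss2 and 385 with Gssos2 on the opposite strand, at means of 1.90 and 0.0177 FPKM. Which strand was counted is not stated. The fold changes of Gclc, Gclm and Gss were -0.01, -0.04 and -0.05, with intervals that included 0.

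The reductase and the peroxidases that use glutathione differed in sign, by small amounts. Gsr (chromosome 8, 33652523 to 33698163), whose product regenerates reduced glutathione with NADPH, had 55.6 and 52.8 FPKM in 1,5-AG cells, against 49.4 and 47.4 FPKM in control cells. Both treated libraries were above both controls, by 12.1% in the mean. The fold change of 0.16 had an interval from 0.04 to 0.28 but did not pass the adjusted test (limma adjusted p = 0.173; 0.0522 in voom; 0.0522 to 0.481 over the alternatives). Gpx1, the abundant cytosolic glutathione peroxidase, had 174 and 163 FPKM with 1,5-AG, against 190 and 177 FPKM without. The treated values were below both controls by 3.02 FPKM at the nearest, less than the spread within either group, and the fold change was -0.12 (SE 0.05, limma adjusted p = 0.323). Gpx4, the peroxidase that reduces lipid peroxides in membranes and guards against ferroptosis, had 70.0 and 66.6 FPKM with 1,5-AG, against 67.7 and 66.8 FPKM without. Gpx4 values are uncertain, because 2 copies with at least 95% identity were counted in the same table, with a mean of 40.5 FPKM for Gpx4-ps2.

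**Figure D2:**
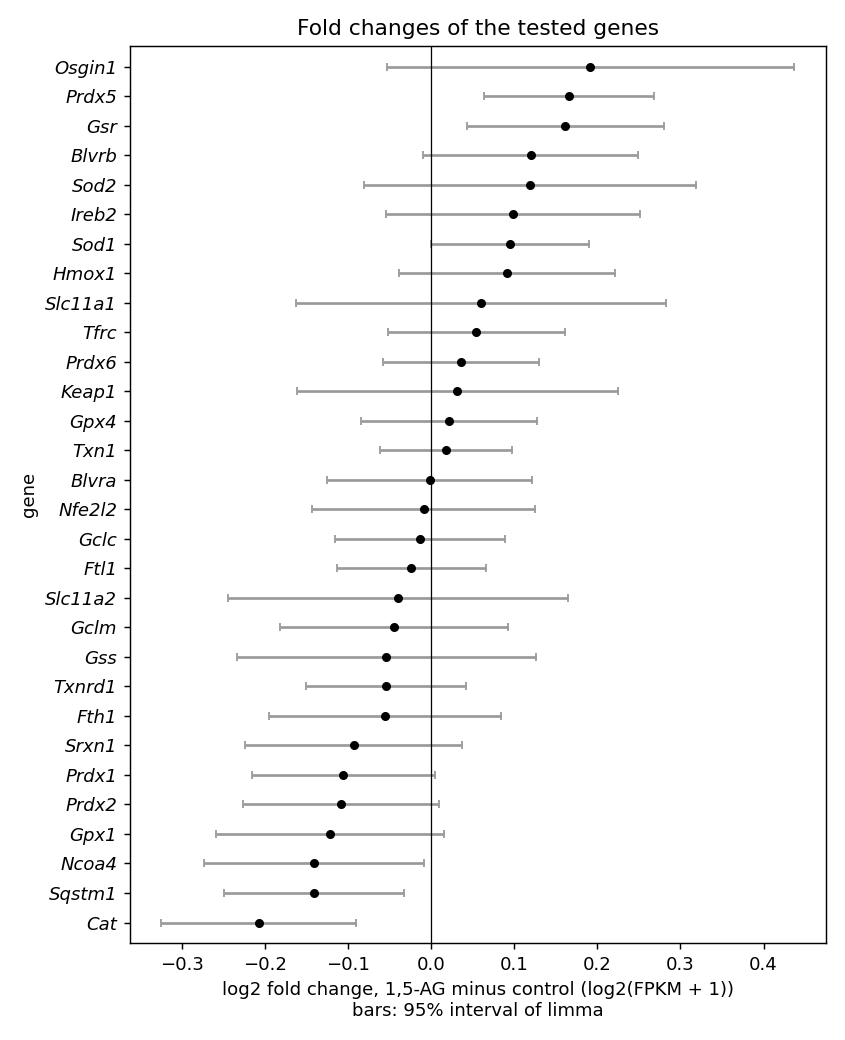
Log2 fold change of each of the 30 tested genes, 1,5-AG minus control, in log2(FPKM + 1) units (horizontal axis), ordered from highest at the top to lowest at the bottom; bars are 95% intervals from limma with 2 libraries per group. The intervals of Prdx5, Gsr, Ncoa4, Sqstm1 and Cat lie clear of 0 before adjustment, and all intervals lie between -0.33 and 0.44.

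Thioredoxin genes were abundant and nearly level. Txn1 encodes thioredoxin, the small protein that reduces peroxiredoxins. It had 349 and 352 FPKM in 1,5-AG cells, against 347 and 344 FPKM in control cells, and the interval of its fold change, from -0.06 to 0.10, was the narrowest of the set. Txnrd1, the reductase that recharges thioredoxin, had 44.1 and 44.8 FPKM with 1,5-AG, against 46.5 and 45.9 FPKM without (-0.05, SE 0.04). Srxn1, which repairs over-oxidised peroxiredoxins, had 17.1 and 17.7 FPKM with 1,5-AG, against 18.1 and 19.1 FPKM without (-0.09, SE 0.05). Both genes were lower in each treated library than in each control, with mean differences of -3.78% and -6.64%.

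Peroxiredoxins, which break down hydrogen peroxide and peroxynitrite, differed in sign among themselves. Prdx5, found in mitochondria, peroxisomes and cytosol, had 36.5 and 36.0 FPKM in 1,5-AG cells, against 32.6 and 31.8 FPKM in control cells. The treated libraries were 12.5% higher in the mean, and the fold change of 0.17 (SE 0.04) had the smallest p of the set after Cat (limma adjusted p = 0.129). It shares 409 exon bases with Trmt112 on the opposite strand, at 38.1 FPKM, and which strand was counted is not stated. Prdx1 had 242 and 244 FPKM with 1,5-AG, against 253 and 270 FPKM without (-0.11, SE 0.04, limma adjusted p = 0.294). Prdx2 had 47.6 and 45.6 FPKM with 1,5-AG, against 49.2 and 51.5 FPKM without (-0.11, SE 0.05). For both, each treated library was lower than each control, and the control spread of Prdx1 was wider than the gap between groups. Beside Prdx1, 2 near-identical copies were counted, with a mean of 14.5 FPKM for Gm21399. Exons of Prdx2 share 173 bases with Junb and 177 with Rnaseh2a on the opposite strand, at means of 31.4 and 14.3 FPKM. Prdx6, the peroxiredoxin that uses glutathione, had 50.04 and 49.7 FPKM with 1,5-AG, against 48.9 and 48.3 FPKM without (0.04, SE 0.04).

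Cat had the largest negative difference and the smallest p of the whole set. It encodes catalase, the peroxisomal enzyme that splits hydrogen peroxide, on chromosome 2 (103453849 to 103485160, minus strand). Its level was 36.0 and 34.0 FPKM in 1,5-AG cells, against 40.7 and 40.5 FPKM in control cells, on 1376 and 1341 fragments against 1611 and 1716. Both treated libraries were below both controls, with a mean difference of -13.7%, and the gap of 4.44 FPKM exceeded the spread within either group. The fold change of -0.21 (SE 0.05, interval -0.33 to -0.09) did not pass in limma (adjusted p = 0.112) and passed in voom (adjusted p = 0.0197). Over the alternatives tried, its adjusted p ran from 0.0197 to 0.335, and its fold change from -0.25 to -0.17.

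The superoxide dismutases had positive fold changes that did not pass. Sod1, the cytosolic copper-zinc enzyme, had 63.2 and 63.8 FPKM with 1,5-AG, against 60.2 and 58.6 FPKM without (0.09, SE 0.04, limma adjusted p = 0.278). Sod2, the mitochondrial manganese enzyme that is also an NF-kB target, had 14.0 and 13.4 FPKM with 1,5-AG, against 13.5 and 11.7 FPKM without (0.12, SE 0.08). The groups of Sod1 were separate and those of Sod2 overlapped. The Sod2 fold change was 0.22 without Ctrl replicate 1 and 0.02 without Ctrl replicate 2. A near-identical copy of Sod1, Gm8566, was counted at a mean of 19.4 FPKM.

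Of the 7 iron storage and transport genes, 6 were tested and 0 passed in limma. The other, Slc40a1, which carries a printed hairpin, averaged under 1 FPKM and was left out by the filter. Fth1 (chromosome 19, 9980598 to 9985098), the ferritin heavy chain with the ferroxidase that oxidises iron for storage, was the most abundant gene of the set. It had 685 and 649 FPKM in 1,5-AG cells, against 724 and 664 FPKM in control cells. The groups overlapped, and the fold change was -0.06 (SE 0.05, interval -0.20 to 0.08). Ftl1, the ferritin light chain, had 148 and 150 FPKM with 1,5-AG, against 153 and 149 FPKM without, and the groups overlapped. Its fold change was -0.02 (SE 0.04). The ratio of Fth1 to Ftl1 levels was 4.64 and 4.33 with 1,5-AG and 4.72 and 4.45 without. Levels of Ftl1 are uncertain, because 5 near-identical copies were counted beside it, with a mean of 62.1 FPKM for Ftl1-ps1.

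Tfrc, the transferrin receptor that brings iron into the cell, carries its hairpins where iron shortage stabilises the message. It had 50.9 and 51.3 FPKM in 1,5-AG cells, against 48.1 and 50.3 FPKM in control cells. Although the groups were separate, the gap was smaller than the spread of the controls, and the fold change of 0.05 (SE 0.04, interval -0.05 to 0.16) did not pass (limma adjusted p = 0.557). Slc40a1, the iron exporter ferroportin, was scarce in every library. It had 0.342 and 0.316 FPKM in 1,5-AG cells, against 0.271 and 0.390 FPKM in control cells, on 45 and 43 fragments against 37 and 57, and was below the level for testing. The groups overlapped.

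The divalent metal transporters did not separate the groups. Slc11a1, the phagosomal transporter also called NRAMP1, had 16.6 and 17.7 FPKM with 1,5-AG, against 17.8 and 15.1 FPKM without. Slc11a2, also called DMT1, which moves iron out of endosomes, had 6.64 and 6.82 FPKM with 1,5-AG, against 7.48 and 6.45 FPKM without. In both genes both treated values lay inside the range of the controls. Ncoa4, the receptor that carries ferritin to lysosomes for iron release, had 8.58 and 8.31 FPKM with 1,5-AG, against 9.30 and 9.53 FPKM without. Its treated libraries were both lower, with a mean difference of -10.3% (log2 fold change -0.14, SE 0.05, limma adjusted p = 0.251), and a near-identical copy, Gm6768, was counted at a mean of 10.6 FPKM.

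Ireb2 encodes iron regulatory protein 2, which binds the printed hairpins when iron is low. It had 16.6 and 16.8 FPKM in 1,5-AG cells, against 14.8 and 16.3 FPKM in control cells. The treated libraries were higher, but the controls lay 1.49 FPKM apart, and the fold change of 0.10 (SE 0.06) did not pass (limma adjusted p = 0.465). It was 0.03 without Ctrl replicate 1 and 0.16 without Ctrl replicate 2. Its partner Aco1, iron regulatory protein 1, named here after its values were seen, had 17.1 and 16.6 FPKM with 1,5-AG, against 17.6 and 18.97 FPKM without (-0.11, SE 0.05, limma adjusted p = 0.361).

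The wider pathway was read from a further list of 111 genes, chosen with earlier results of these data known. Of the list, 91 had a row and 76 were tested. Of these, 3 fell with 1,5-AG and 0 rose by limma, against 0.648% lower and 0.809% higher among all tested genes. The 3 were Mgst3 and Mgst2, membrane-bound glutathione transferases related to the enzymes of leukotriene synthesis, and Hfe, the membrane protein of iron sensing that binds the transferrin receptor. Over the list, 33 fold changes were positive and 43 negative, with a median of -0.02. At an unadjusted p under 0.05, 25 of 76 passed (9 higher and 16 lower), against 18.2% of all tested genes (9.16% higher and 9.05% lower). The groups did not overlap for 43 of 76, 17 above and 26 below, against 49.6% of all tested genes (24.2% above and 25.4% below).

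Mgst3 (chromosome 1, 167371966 to 167393841) had 30.9 and 32.3 FPKM in 1,5-AG cells, against 49.8 and 46.8 FPKM in control cells. The groups were 14.5 FPKM apart at their nearest libraries, and Mgst3 fell by 34.5% in the mean (log2 fold change -0.60, SE 0.05, limma adjusted p = 0.0207). Mgst2 (chromosome 3, 51660360 to 51682677) had 8.78 and 8.95 FPKM in 1,5-AG cells, against 13.5 and 13.9 FPKM in control cells. It fell by 35.4% (-0.58, SE 0.05, limma adjusted p = 0.0207), again with groups far apart relative to their spread. Hfe (chromosome 13, 23702034 to 23710854) had 4.33 and 4.43 FPKM in 1,5-AG cells, against 6.59 and 6.49 FPKM in control cells, and fell by 33.04% (-0.49, SE 0.06, limma adjusted p = 0.0381). Each of the 3 lost its call in each fit that left out 1 library, as did nearly all genes called in the main fit. Without a filter on low values 0 genes of the table passed. The limma adjusted p there was 0.0929 for Mgst3, 0.0885 for Mgst2 and 0.137 for Hfe. Over all alternatives the fold changes ran from -0.64 to -0.55 for Mgst3, from -0.63 to -0.56 for Mgst2 and from -0.58 to -0.47 for Hfe.

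**Figure D3:**
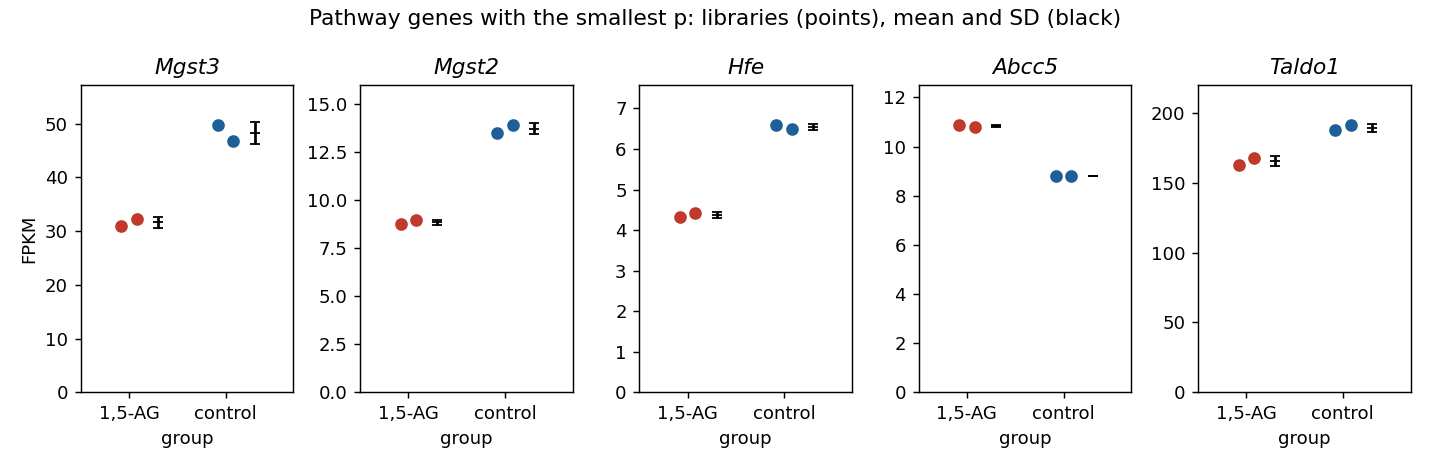
FPKM (vertical axis, from 0) of the 5 genes of the wider list with the smallest p, in 1,5-AG libraries (red, left) and control libraries (blue, right); points are libraries, and the black marks give the mean and SD of 2 libraries. Mgst3, Mgst2 and Hfe lie lower in both 1,5-AG libraries than in control libraries, and Abcc5 and Taldo1 show smaller separate groups.

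After these, the smallest p values belonged to Abcc5 and Taldo1. Abcc5, an export pump for nucleotides and organic anions, had 10.9 and 10.8 FPKM with 1,5-AG, against 8.79 and 8.80 FPKM without (0.27, SE 0.05, limma adjusted p = 0.0794). Taldo1, the transaldolase of the pentose phosphate pathway and an NRF2 target, had 163 and 168 FPKM with 1,5-AG, against 187 and 191 FPKM without (-0.19, SE 0.04, limma adjusted p = 0.0838). Neither passed in limma with the filter at 1 FPKM. Both passed in limma with a filter at 5 FPKM (adjusted p = 0.0481 for each) and in voom (adjusted p = 0.000833 for Abcc5 and 0.00261 for Taldo1), and Taldo1 also passed in limma with the replicate block (adjusted p = 0.0439). Over the alternatives the adjusted p ran from 0.000833 to 0.285 for Abcc5 and from 0.00261 to 0.311 for Taldo1. Voom called 13 of the 76 genes in all, 2 higher and 11 lower, against 3.65% higher and 4.64% lower among all genes it tested.

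By role, the genes of the wider list that limma called lay in 2 groups, to be read against 0.648% lower and 0.809% higher among all tested genes. Among glutathione transferases, hydrolases and peroxidases, 2 of 9 tested genes fell and 0 rose. Among genes of iron uptake, reduction and transfer, 1 of 8 fell and 0 rose. In the remaining groups 0 passed by limma: NRF2 partners and repressors (6 tested), NRF2-linked metabolism and export (13), thioredoxin, glutaredoxin and related reductases (16), iron regulation (3), heme synthesis and transport (13) and iron-sulfur cluster assembly (8). The voom calls lay in 6 of the groups, to be read against 3.65% higher and 4.64% lower among all genes voom tested. They were 1 higher and 3 lower in metabolism and export, 3 lower among the transferases and 3 lower among the thioredoxin-related reductases. The others were 1 lower in iron uptake, 1 higher in iron regulation and 1 lower in heme synthesis and transport. The NRF2 target Slc7a11, the cystine importer that feeds glutathione synthesis, named after its values were seen, had 3.56 and 3.65 FPKM with 1,5-AG, against 2.99 and 3.55 FPKM without (0.11, SE 0.09, limma adjusted p = 0.591). In its group of 13, 6 fold changes were positive and 7 negative. At an unadjusted limma p under 0.05, 2 were higher and 4 lower, against 9.16% and 9.05% of all tested genes. The higher genes were Abcc5 and Slc3a2 (0.15). The lower genes were Taldo1, Pgd (-0.13), Tkt (-0.14) and G6pdx (-0.12).

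**Figure D4:**
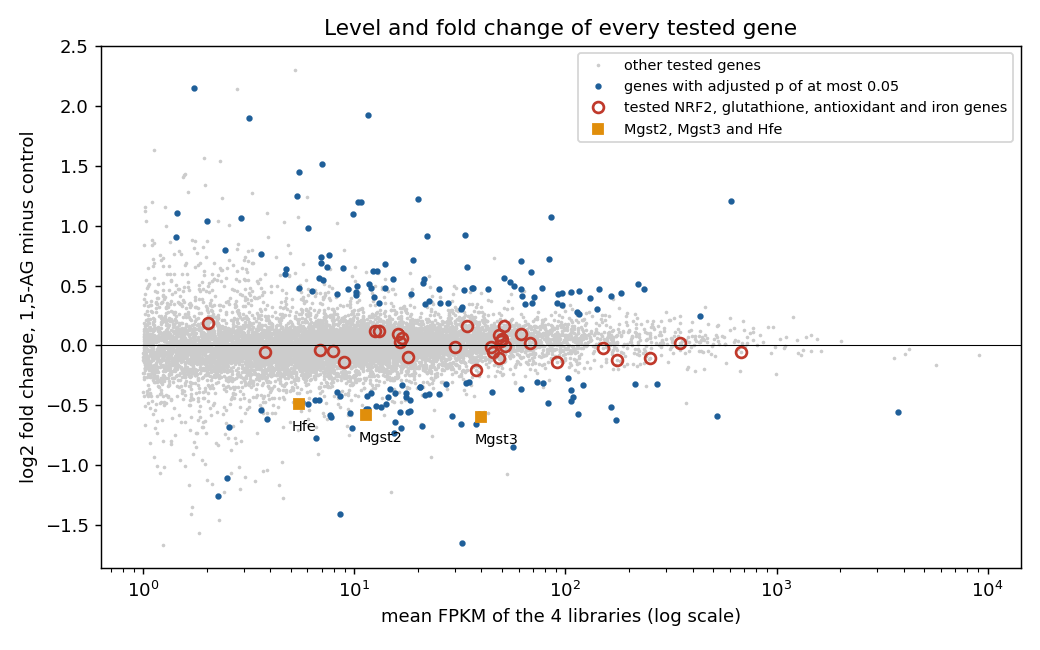
Log2 fold change, 1,5-AG minus control (vertical axis), against mean FPKM of the 4 libraries (horizontal axis, log scale) for all 11119 tested genes; blue points passed limma at an adjusted p of at most 0.05, red rings are the 30 tested NRF2, glutathione, antioxidant and iron genes, and orange squares are Mgst2, Mgst3 and Hfe. The rings lie between -0.21 and 0.19 and none coincides with a blue point, while the squares lie between -0.60 and -0.49.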

How the data were processed

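Members and gene lists were chosen with earlier results of these data known. The values are FPKM as deposited by the authors, 1 column per library. The submitters' processing notes name Trimmomatic, HISAT2, Cufflinks, HTSeq and the build mm10; no version, role or strand setting is stated there. Of 21523 identifiers, 21508 matched GENCODE M21, which gave symbols, coordinates and merged exon lengths. FPKM times exon length gave whole fragments, within 0.02, for 99.4% of genes. limma 3.58.1 (R 4.3.3) was fitted to log2(FPKM + 1) with a group term and a variance trend, over genes averaging 1 FPKM or more; p-values were two-sided and adjusted by Benjamini-Hochberg over 11119 genes. A pseudocount of 1 understates changes of low genes. Exact permutation of 2 against 2 libraries cannot go below p = 0.333, so tests rest on pooled variance (3.06 prior degrees of freedom). FPKM are shares of a library, and fragment counts cover counting error only. Values per library are given for all listed genes with a row. Of the wider list, the genes past the threshold and the 5 with the smallest p are named by rule. Aco1, Slc7a11, Slc3a2, Pgd, Tkt and G6pdx are named outside that rule, after their values were seen. Near-identical copies were sought with blastn (95% identity over 200 bases).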

Additional observations from a re-analysis of the deposited data

How the results depend on the processing

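In the alternatives on all 4 libraries, voom on recovered fragments called 2 listed genes and each other fit called 0. All alternatives were planned. Without a filter on low values 0 of 21501 genes passed, so that fit says nothing about the listed genes in particular. In the main fit the count past the threshold was 162 over all genes and 3 over the wider list. It changed to 0 and 0 without a filter on low values, 360 and 6 with a filter at 5 FPKM, and 917 and 13 with voom. At an unadjusted p under 0.05, the unfiltered limma fit had 7 of 32 listed genes and 2626 of 21501 genes tested. Quantile normalization had 9 of 30 listed genes (1934 of 11119 genes) and voom 10 of 30 (2369 of 11056). The main fit had 5 listed genes (2025 of 11119 genes), as did a pseudocount of 0.1 (2015 of 11119). A filter at 5 FPKM also had 5 (1626 of 7500). Median-ratio scaling and the replicate block each had 6 (2024 and 2292 of 11119). Leaving out 1 library left a lone library in 1 group, assumed to vary like the other group. Nearly all genes called in the main fit then lost their calls, Mgst3, Mgst2 and Hfe among them. These fits therefore say little about any list by count. The fold changes ran from -0.64 to -0.55 for Mgst3, from -0.60 to -0.56 for Mgst2 and from -0.50 to -0.47 for Hfe. Libraries with equal numbers had deviations that correlated at 0.0124, so they were not taken as pairs; the replicate block gave 312 genes, 5 of the wider list and 0 listed genes. The cause of the changed counts was not tested. Of 383 fold changes of the 35 genes followed, 347 kept sign and side of the threshold, 15 lost and 7 gained a call, and 14 changed sign. With median-ratio scaling Nfe2l2 had 0.0012 and Blvra 0.0088, and with quantile normalization Gpx4 had -0.030 and Txn1 -0.0073. With 1 library left out, the fold change ranged from -0.055 to 0.036 for Nfe2l2, from -0.060 to 0.12 for Keap1, from -0.044 to 0.040 for Blvra, from -0.013 to 0.056 for Gpx4, from -0.12 to 0.0057 for Fth1, from -0.053 to 0.17 for Slc11a1 and from -0.13 to 0.054 for Slc11a2. Osgin1 and Gss were not tested at 5 FPKM. Depth limits Nqo1, as 3 fragments in 2 kb of exon are worth 0.0924 to 0.103 FPKM. Slc40a1, on 37 to 57 fragments per library, was left out of the main fit by the filter at 1 FPKM.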
